A study of Homo sapiens with 12 samples.

Results

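The death receptor pathway starts extrinsic apoptosis, and 10 of its genes were followed here: the ligand TNFSF10, the receptors FAS, TNFRSF10A, TNFRSF10B and TNFRSF21, the decoy receptor TNFRSF10D, the adaptor FADD, the initiator caspases CASP8 and CASP10, and the inhibitor CFLAR. They and the gene lists read beside them were chosen with earlier results of these data known. Their counts of called genes beside the share of all genes are thus a description. The 10 were taken by name from the 60591 genes of a table of read counts. All 10 were found in it and passed the filter on low counts that 19108 genes passed. The counts come from PC9 and H1650 cells, which are established non-small cell lung cancer lines that carry the same activating deletion in EGFR and are listed as wild-type, that is, without further engineering. The T0 cells of each line were collected at the time of drugging (0.1% DMSO, 0 h), and the treated cells after 36 h with 10 μM erlotinib, a first-generation EGFR inhibitor, or 0.1 μM osimertinib, a third-generation one. There were 2 replicates in each of the 6 groups, so 12 libraries of polyA RNA in all, and nothing in the labels says whether the replicates were separate cultures, so p-values measure the spread between these samples only. The study asked whether expression changes could account for unequal drug-induced death in these lines. Its authors described similar expression responses in both lines and found no difference that could clarify the unequal death. In PC9 cells under erlotinib they also tested inhibitors of several death pathways, among them an inhibitor of extrinsic apoptosis. They reported significantly less death with the caspase inhibitor z-VAD and no significant change with the others. No DMSO library of 36 h was analysed here, so in any change against T0 the drug and the 36 h in culture cannot be told apart.

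In this pathway, ligands of the tumor necrosis factor family bind receptors at the cell surface that carry an intracellular death domain. TNFSF10, better known as TRAIL, binds TNFRSF10A (DR4) and TNFRSF10B (DR5), whereas FAS is bound by the Fas ligand. The bound receptors recruit FADD, which gathers CASP8 and CASP10 into a signaling complex where these caspases activate each other. CFLAR, or c-FLIP, resembles the initiator caspases and competes with them in that complex. TNFRSF10D (DcR2) binds TRAIL with a truncated death domain and does not pass on the signal. TNFRSF21 (DR6) has a death domain, but TRAIL is not its ligand.

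Several of the genes are neighbours in the genome. On GRCh38 (GENCODE 29), CFLAR at chr2:201116104-201176687, CASP10 at chr2:201182881-201229406 and CASP8 at chr2:201233443-201287711 stand in a row on the plus strand, with 6193 and 4036 bases between them. The other neighbours, TNFRSF10B, TNFRSF10D and TNFRSF10A, are described with their values. TNFSF10 lies at chr3:172505508-172523507 and TNFRSF21 at chr6:47231532-47309905, both on the minus strand. FAS at chr10:88990582-89015785 and FADD at chr11:70203163-70207390 are on the plus strand.

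RefSeq promoters (GRCh38.p14) were at hand for 6 of the 10 genes. TNFSF10 and TNFRSF21 are shown because their mRNA rose in PC9 with each drug and was higher after osimertinib than after erlotinib. CASP10 did so as well but had no promoter entry. Each sequence is the part of the 250 bases before the RefSeq start that lies outside every annotated exon, written 5′ to 3′ along the gene. Capitals mark the match to a core of the interferon-stimulated response element, the sequence that interferon-activated factors bind. The TNFSF10 sequence is chr3:172523508-172523680 and that of TNFRSF21 is chr6:47309906-47310155, both on the minus strand.
TNFSF10: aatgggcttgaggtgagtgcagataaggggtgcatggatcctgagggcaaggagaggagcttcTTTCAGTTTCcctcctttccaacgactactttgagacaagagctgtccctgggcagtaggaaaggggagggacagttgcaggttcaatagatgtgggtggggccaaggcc
TNFRSF21: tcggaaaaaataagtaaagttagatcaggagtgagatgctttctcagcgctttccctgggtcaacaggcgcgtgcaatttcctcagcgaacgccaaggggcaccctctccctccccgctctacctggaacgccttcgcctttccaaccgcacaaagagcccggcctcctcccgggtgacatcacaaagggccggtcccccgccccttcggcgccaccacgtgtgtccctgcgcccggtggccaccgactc
Each window was searched on both strands for 5 motifs: the core of the interferon-stimulated response element (GAAA and GAAA with NN between them), TTCNNNGAA (GAS), TGTTTAC (FOXO), TGANTCA (AP-1) and kappaB (GGGA and TTCC with NN between them). The TNFSF10 window of 173 bases held 1 match, to the first of these on the reverse strand at position -187 relative to the start, and 2.07% of 35116 promoter windows of the same length held that core. No letters of the other 4 motifs were found there, and none of the 5 in the 250 bases of TNFRSF21, where between 1.40% and 6.57% of promoters held each motif. A FADD window of 117 bases, not shown, was searched as well and held none of the 5, where between 0.57% and 3.36% of promoters held each. The remaining members with a promoter entry were not searched, so the match in TNFSF10 was not compared with them. The TNFSF10 letters overlap no other motif searched, and a match is a description of sequence and not of binding.

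Library totals ran from 17961765 to 26346187 reads counted on genes, TMM factors from 0.941 to 1.08 and mitochondrial genes from 4.36% to 7.20% of the reads. A count of 0 allows up to 3 reads, or between 0.116 and 0.168 CPM by library (counts scaled to the TMM-normalized library size), a limit that covers counting error only. All 6 markers of epithelium, the tissue of origin of such cancers, were at 1 CPM or more in every library (9560 to 13298 CPM summed in PC9 and 6162 to 9672 in H1650). The 5 leukocyte markers summed to between 0.672 and 3.96 CPM and the 3 endothelial markers to between 0.193 and 5.55. The 6 fibroblast markers summed to between 16.9 and 45.9 CPM, with COL1A2, DCN and LUM at 3 reads or fewer in every library. In PC9 most of that sum came from COL1A1, and in H1650 from COL1A1 and COL3A1 together. Group means ran from 10.6 to 40.7 CPM for COL1A1 over both lines and from 6.91 to 19.7 CPM for COL3A1 in H1650.

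Before treatment the pathway was expressed in both lines, at very different levels from gene to gene. Levels of different genes are compared as normalized CPM per kb, using the gene lengths deposited with the counts. In PC9 at T0, TNFRSF21 stood far above the rest at 94.6 ± 1.12 CPM per kb (SD, n = 2), followed by FADD at 18.9 ± 1.52, TNFRSF10B at 11.6 ± 0.200, TNFRSF10D at 10.1 ± 0.528, TNFRSF10A at 8.52 ± 0.210 and CASP8 at 6.48 ± 0.150. CFLAR at 1.93 ± 0.164, FAS at 1.58 ± 0.112, CASP10 at 1.13 ± 0.0808 and TNFSF10 at 0.449 ± 0.00671 CPM per kb closed the order, and no neighbours in it overlapped between libraries. In H1650 at T0, TNFRSF21 also led, at 34.3 ± 0.446 CPM per kb, and TNFSF10 was again lowest, at 0.388 ± 0.165. FADD at 6.95 ± 1.33 CPM per kb overlapped CASP8 at 6.19 ± 0.110 in H1650, where TNFRSF10B, TNFRSF10D, TNFRSF10A and CFLAR followed at between 3.16 and 5.91. CFLAR has a deposited length of 22479 bases, which lowers its level per kb beside that of the shorter FADD (1708 bases).

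**Figure D1:**
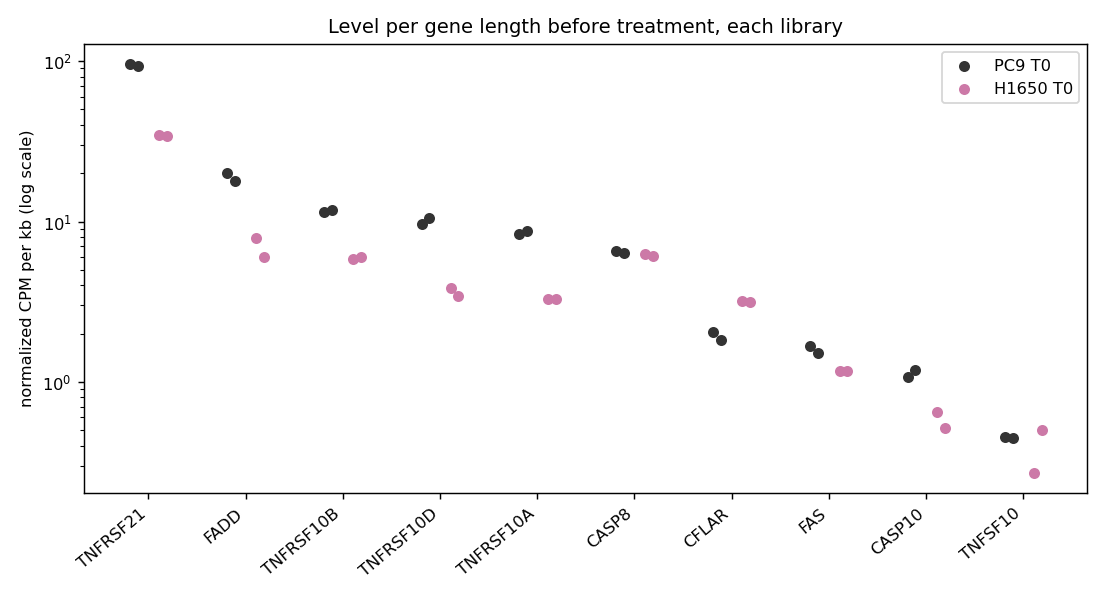
Level of each gene at T0 as normalized CPM per kb of deposited gene length, on a log scale, with a point for each of the 2 libraries of PC9 (dark) and H1650 (pink). TNFRSF21 is highest and TNFSF10 lowest in both lines, and CFLAR alone among these genes is clearly higher in H1650.

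At T0, 8 of the 10 genes differed between the lines, 7 lower and 1 higher in H1650, where 69.6% of tested genes differed (33.8% lower and 35.8% higher). A gene was called where the Benjamini-Hochberg adjusted p of edgeR's quasi-likelihood test, over all 19108 genes, was under 0.05, and this holds for every adjusted p given here. The TRAIL-binding receptors and FADD were between 1.96-fold and 2.77-fold lower in H1650, with log2 differences of -0.97 (SE 0.0868) for TNFRSF10B, -1.38 (SE 0.176) for TNFRSF10A, -1.47 (SE 0.127) for TNFRSF10D and -1.45 (SE 0.138) for FADD, and adjusted p of 8.1e-08 or less. TNFRSF21 was lower by the same measure at -1.47 (SE 0.0677, adjusted p = 4.8e-17), and CASP10 at -0.98 (SE 0.168, adjusted p = 9.5e-06). FAS was lower at -0.44 (SE 0.174, adjusted p = 0.0268), but not past the threshold with DESeq2 (adjusted p = 0.0983) or without PC9 T0 replicate 1 or H1650 T0 replicate 1 or 2 (0.0677 to 0.154). CFLAR was 1.64-fold higher in H1650 (log2 difference 0.71, SE 0.0807, adjusted p = 9.1e-09). CASP8, at 46.9 ± 1.09 CPM in PC9 and 44.8 ± 0.796 in H1650, differed by -0.066 on the log2 scale (95% interval -0.24 to 0.10), and TNFSF10 by -0.18 (95% interval -0.81 to 0.45).

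After 36 h of treatment, the ligand TNFSF10 and the caspase CASP10 rose with either drug in both lines, TNFRSF10A and TNFRSF10D fell with either drug in both lines, and TNFRSF10B and CASP8 fell in PC9 but rose in H1650. Of all tested genes, 8.47% were called higher in all 4 comparisons with T0 and 9.16% were called lower in all 4. In PC9 all 10 genes passed the test after erlotinib, 4 higher and 6 lower, where 61.8% of tested genes passed (32.7% higher, 29.1% lower). After osimertinib 4 were higher and 6 lower as well, where 61.4% of tested genes passed (32.7% higher, 28.7% lower). In H1650, 6 of the 10 passed after erlotinib (4 higher, 2 lower) against 36.5% of tested genes (18.0% higher, 18.5% lower), and 7 after osimertinib (5 higher, 2 lower) against 35.7% (17.8% higher, 17.9% lower). The median log2 fold change over the 10 genes after erlotinib was -0.23 in PC9 and 0.14 in H1650, and after osimertinib -0.34 in PC9 and 0.19 in H1650, whereas over all tested genes it lay between 0 and 0.074. The drugs share the T0 libraries of a line. These are whole cultures, in which fewer cells with an mRNA and less of it per cell cannot be told apart.

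**Figure D2:**
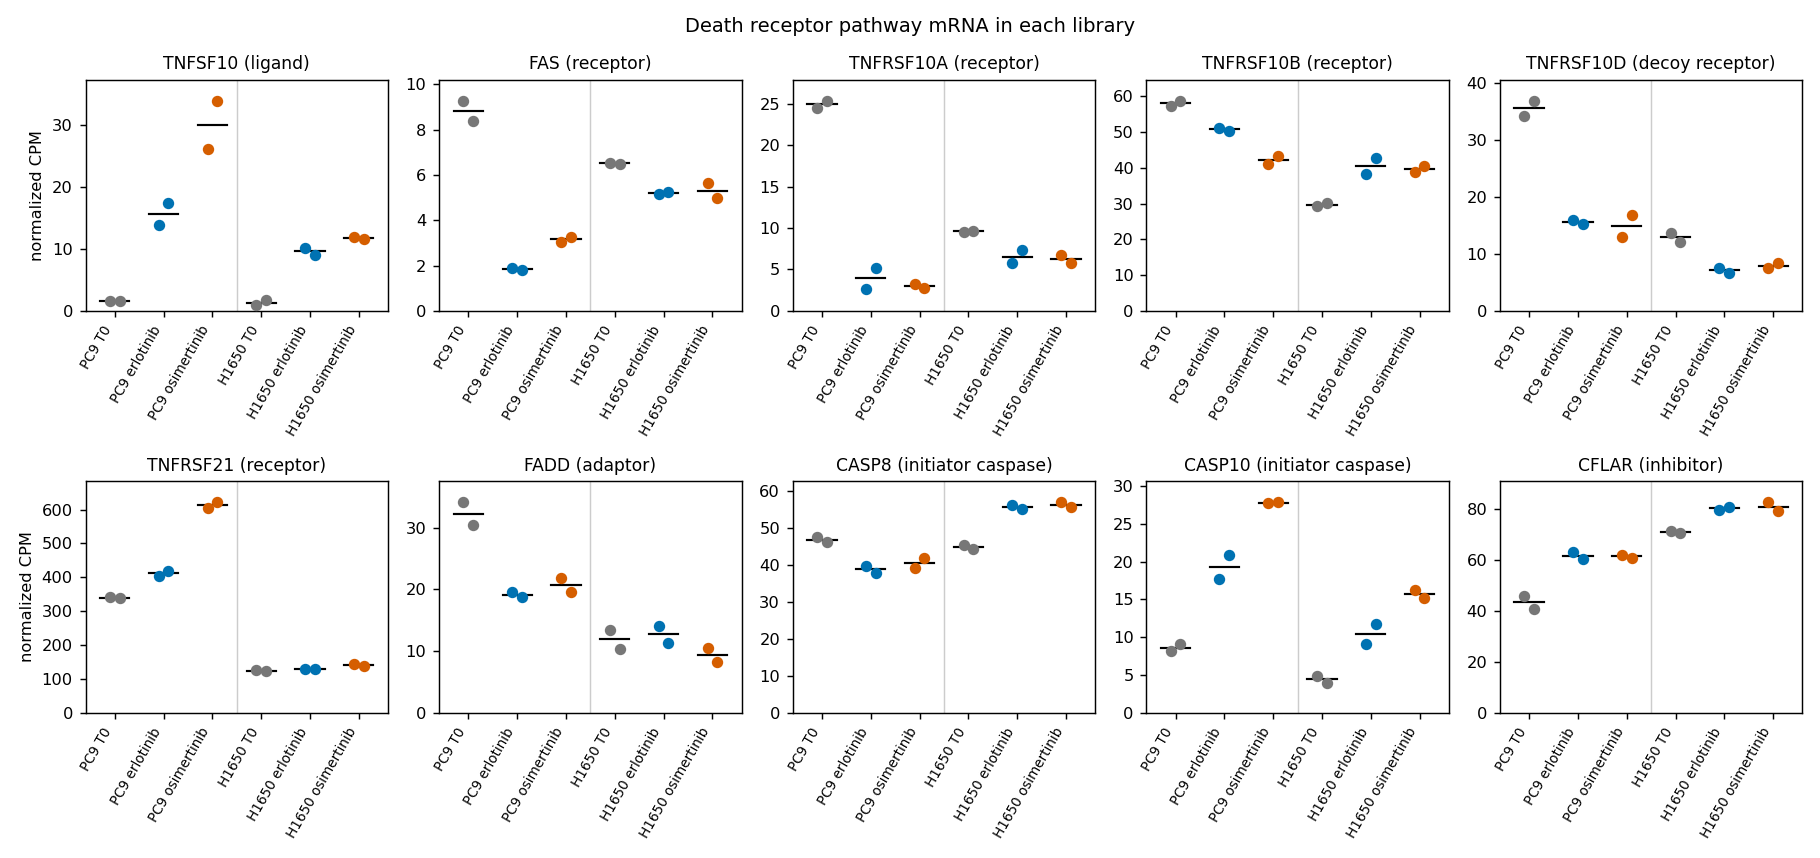
Normalized CPM of each gene in each library (points) with the mean of 2 libraries (bar), for PC9 and H1650 at T0 (grey) and after 36 h of erlotinib (blue) or osimertinib (orange), each panel starting at 0. TNFSF10 and CASP10 are higher in treated than in T0 libraries of both lines, while FAS and TNFRSF10A drop in PC9 to below their H1650 levels.

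The ligand changed most. TNFSF10 was at 1.56 and 1.53 CPM in the PC9 T0 libraries (31 reads in each), at 13.9 and 17.4 CPM after erlotinib and at 26.1 and 33.9 CPM after osimertinib. The H1650 libraries had 0.933 and 1.74 CPM at T0 (20 and 45 reads), 10.2 and 8.99 CPM after erlotinib and 11.9 and 11.6 CPM after osimertinib. Every treated library was thus above every T0 library. The rise was 10.1-fold after erlotinib (log2 fold change 3.34, SE 0.216, adjusted p = 1.2e-13) and 19.3-fold after osimertinib (4.27, SE 0.208, adjusted p = 2.1e-16) in PC9. The H1650 rise was 6.98-fold (2.80, SE 0.226, adjusted p = 1.0e-10) and 8.56-fold (3.10, SE 0.220, adjusted p = 9.6e-12). The H1650 T0 libraries had few reads and differed from each other, and without H1650 T0 replicate 2 the H1650 log2 fold changes were 3.35 and 3.64, against 2.46 and 2.75 without replicate 1.

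TNFRSF10B at chr8:23020133-23069179, TNFRSF10D at chr8:23135588-23164030 and TNFRSF10A at chr8:23190452-23225126 are all on the minus strand, 66408 and 26421 bases apart. Of those that bind TRAIL and carry a full death domain, TNFRSF10A fell steeply in PC9. It was at 24.5 and 25.4 CPM in PC9 at T0, at 2.60 and 5.23 CPM after erlotinib and at 3.19 and 2.75 CPM after osimertinib. In H1650 it was at 9.56 and 9.61 CPM at T0, at 5.73 and 7.31 CPM after erlotinib and at 6.68 and 5.79 CPM after osimertinib. T0 libraries stood above treated ones in both lines, and the order of the lines turned, with PC9 higher at T0 and lower once treated. The fall in PC9 was 6.28-fold after erlotinib (log2 fold change -2.65, SE 0.195, adjusted p = 1.8e-12) and 8.34-fold after osimertinib (-3.06, SE 0.209, adjusted p = 3.5e-13). The PC9 erlotinib libraries differed from each other, and the log2 fold change was -3.26 without replicate 2 and -2.25 without replicate 1. In H1650 the fall was 1.47-fold after erlotinib (-0.55, SE 0.196, adjusted p = 0.0277) and 1.54-fold after osimertinib (-0.62, SE 0.195, adjusted p = 0.0134). The first of these was not called with DESeq2 (adjusted p = 0.0622) or without H1650 T0 replicate 1 or 2 or H1650 erlotinib replicate 1 (0.0684 to 0.239), nor the second without H1650 osimertinib replicate 2 (0.118). Exons of TNFRSF10A overlap the antisense genes TNFRSF10A-AS1, at 6 to 27 reads, and AC100861.1, at 14 to 102 reads. Both fell in PC9 as well, by 1.64 and 1.51 on the log2 scale for TNFRSF10A-AS1 and by 1.18 and 2.17 for AC100861.1.

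TNFRSF10B, the other receptor of this kind, went opposite ways in the lines. It was at 57.3 and 58.7 CPM in PC9 at T0, at 51.2 and 50.2 CPM after erlotinib and at 40.9 and 43.3 CPM after osimertinib. For H1650 the values were 29.2 and 30.0 CPM at T0, 38.3 and 42.7 CPM after erlotinib and 38.9 and 40.6 CPM after osimertinib. The treated libraries of the lines, from 38.3 to 51.2 CPM, thus lay between the T0 levels of H1650 and PC9. In H1650 the rise was 1.37-fold after erlotinib (log2 fold change 0.45, SE 0.0882, adjusted p = 0.000155) and 1.34-fold after osimertinib (0.43, SE 0.0880, adjusted p = 0.000316). In PC9 it fell by 0.46 on the log2 scale after osimertinib (SE 0.0856, adjusted p = 3.1e-05). The decrease after erlotinib in PC9 was slight at -0.19 (SE 0.0838, adjusted p = 0.0462) and was lost with DESeq2 (0.0622), with upper quartile scaling (0.271), with a filter of 10 counts in every library (0.0977) and without either library of PC9 T0 or PC9 erlotinib or H1650 T0 replicate 2 (0.0523 to 0.171). Some of its exons overlap RHOBTB2 on the opposite strand, which had between 99 and 776 reads in a library, against 626 to 1287 for TNFRSF10B. RHOBTB2 counts fell in PC9 by 1.88 and 1.61 on the log2 scale. In H1650 they rose by 0.64 after erlotinib (adjusted p = 0.000133) and differed by 0.28 after osimertinib (adjusted p = 0.0807). Whether strand was used in counting is not given in the sources used here, and the part of RHOBTB2 in the TNFRSF10B counts was not tested.

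FAS, the receptor of the Fas ligand, fell in PC9. It was at 9.28 and 8.39 CPM at T0 in PC9, at 1.88 and 1.80 CPM after erlotinib and at 3.05 and 3.25 CPM after osimertinib. H1650 had 6.53 and 6.48 CPM at T0, 5.16 and 5.26 CPM after erlotinib and 5.63 and 4.99 CPM after osimertinib. The PC9 groups did not overlap, and the fall was 4.80-fold after erlotinib (log2 fold change -2.26, SE 0.204, adjusted p = 1.3e-10) and 2.80-fold after osimertinib (-1.49, SE 0.194, adjusted p = 1.4e-07). The H1650 values were lower after treatment as well, but by -0.32 (95% interval -0.70 to 0.056, adjusted p = 0.184) and -0.29 (95% interval -0.67 to 0.079, adjusted p = 0.224), which did not pass. ACTA2, which overlaps FAS exons on the opposite strand, had between 5 and 61 reads in a library, against 42 to 184 for FAS. Its log2 fold changes were -2.20 (adjusted p = 0.000631) and -2.80 (adjusted p = 7.5e-05) in H1650. In PC9 they were -0.36 (adjusted p = 0.670) and 0.98 (adjusted p = 0.155). The part of ACTA2 in the FAS counts was not tested. FASLG, which encodes the Fas ligand, had 0 reads in all 12 libraries.

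The decoy receptor TNFRSF10D was lower after treatment in both lines. It was at 34.3 and 36.9 CPM in PC9 at T0, at 15.9 and 15.3 CPM after erlotinib and at 13.04 and 16.8 CPM after osimertinib. The H1650 cells had 13.7 and 12.1 CPM at T0, 7.58 and 6.66 CPM after erlotinib and 7.49 and 8.37 CPM after osimertinib. No treated library overlapped T0 of its line. The fall was 2.28-fold and 2.40-fold in PC9 (log2 fold changes -1.19, SE 0.125, adjusted p = 2.7e-09, and -1.26, SE 0.127, adjusted p = 1.2e-09) after erlotinib and osimertinib. The H1650 fall was 1.81-fold and 1.62-fold (-0.86, SE 0.146, adjusted p = 3.0e-05, and -0.70, SE 0.142, adjusted p = 0.000286).

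TNFRSF21 was the most abundant of the genes and rose in PC9. It was at 343 and 337 CPM in PC9 at T0, at 405 and 418 CPM after erlotinib and at 606 and 621 CPM after osimertinib. H1650 cells held less, 124 and 122 CPM at T0, 129 CPM in both erlotinib libraries and 142 and 138 CPM after osimertinib. PC9 thus held more of it than H1650 in every state, and the gap was widest after osimertinib. The log2 fold change in PC9 was 0.27 after erlotinib (SE 0.0654, adjusted p = 0.000646) and 0.85 after osimertinib (SE 0.0656, adjusted p = 4.8e-12), the latter a 1.80-fold rise. The H1650 value was 0.069 after erlotinib (95% interval -0.070 to 0.21, adjusted p = 0.464). The 0.18 after osimertinib in H1650 passed at an adjusted p of 0.0335 but not with RLE scaling (0.0614), without a filter (0.0761), with a fit of H1650 alone (0.0504) or without any of the 4 H1650 libraries compared (0.0724 to 0.166).

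FADD, the adaptor, fell in PC9. It was at 34.1 and 30.5 CPM in PC9 at T0, at 19.6 and 18.7 CPM after erlotinib and at 21.8 and 19.6 CPM after osimertinib. Values in H1650 were 13.5 and 10.3 CPM at T0, 14.1 and 11.3 CPM after erlotinib and 10.5 and 8.28 CPM after osimertinib. The H1650 groups overlapped and the PC9 groups did not. The fall in PC9 was 1.69-fold (log2 fold change -0.76, SE 0.132, adjusted p = 1.5e-05) and 1.56-fold (-0.64, SE 0.133, adjusted p = 0.000143). In H1650 neither passed, at 0.10 after erlotinib (95% interval -0.20 to 0.41, adjusted p = 0.641) and -0.33 after osimertinib (95% interval -0.64 to -0.017, adjusted p = 0.0954). The latter passed without H1650 osimertinib replicate 1 (-0.51, adjusted p = 0.0399) or H1650 T0 replicate 2 (-0.52, adjusted p = 0.0215). For erlotinib the direction turned without H1650 erlotinib replicate 1 (-0.067) or H1650 T0 replicate 2 (-0.089).

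Of the initiator caspases, CASP10 rose in both lines, whereas CASP8 rose in H1650 and fell in PC9. CASP10 was at 8.17 and 9.03 CPM in PC9 at T0, at 17.7 and 20.9 CPM after erlotinib and at 27.8 and 27.9 CPM after osimertinib. The H1650 values were 4.90 and 3.90 CPM at T0, 9.13 and 11.8 CPM after erlotinib and 16.3 and 15.2 CPM after osimertinib. In both lines the 3 groups stood in the same order without overlap, T0 lowest and osimertinib highest. The rise in PC9 was 2.25-fold (log2 fold change 1.17, SE 0.143, adjusted p = 4.8e-08) after erlotinib and 3.23-fold (1.69, SE 0.142, adjusted p = 2.7e-11) after osimertinib. The H1650 rise was 2.40-fold (1.26, SE 0.164, adjusted p = 5.2e-07) and 3.60-fold (1.85, SE 0.157, adjusted p = 3.1e-10).

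CASP8, the caspase on which most death receptor signaling rests, showed small and opposite changes. It was at 47.7 and 46.2 CPM in PC9 at T0, at 39.9 and 37.8 CPM after erlotinib and at 39.2 and 41.9 CPM after osimertinib. H1650 libraries had 45.4 and 44.3 CPM at T0, 56.2 and 55.2 CPM after erlotinib and 57.0 and 55.9 CPM after osimertinib. All T0 libraries lay between 44.3 and 47.7 CPM, and once treated the lines stood well apart. In H1650 the rise was 1.24-fold after erlotinib (log2 fold change 0.31, SE 0.0816, adjusted p = 0.00305) and 1.26-fold after osimertinib (0.33, SE 0.0813, adjusted p = 0.00181). In PC9 the fall was 1.21-fold after erlotinib (-0.27, SE 0.0830, adjusted p = 0.00555), which was lost without PC9 erlotinib replicate 2 (adjusted p = 0.0510). After osimertinib it was 1.16-fold (-0.21, SE 0.0838, adjusted p = 0.0311). This was lost with DESeq2 (0.0507), upper quartile scaling (0.136) and the filter of 10 counts (0.0637), and without PC9 T0 replicate 1 or 2 or PC9 osimertinib replicate 1 (0.0640 to 0.192).

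CFLAR, the inhibitor encoded next to both caspases, rose in PC9. It was at 46.0 and 40.8 CPM in PC9 at T0, at 63.2 and 60.2 CPM after erlotinib and at 62.0 and 60.9 CPM after osimertinib. CFLAR in H1650 was at 71.5 and 70.8 CPM at T0, 79.8 and 80.8 CPM after erlotinib and 82.6 and 79.4 CPM after osimertinib. H1650 thus held more CFLAR than PC9 in every state, and treated PC9 cells stayed below H1650 cells at T0. The rise in PC9 was 1.42-fold with each drug (log2 fold change 0.51, SE 0.0810, adjusted p = 3.7e-06 after erlotinib, and 0.50, SE 0.0817, adjusted p = 4.9e-06 after osimertinib). In H1650 the values were 0.18 (95% interval 0.015 to 0.33, adjusted p = 0.0814) and 0.19 (95% interval 0.028 to 0.35, adjusted p = 0.0610), which did not pass, though both passed with the filter of 10 counts (0.0348 and 0.0261) and the second with upper quartile scaling (0.0370).

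**Figure D3:**
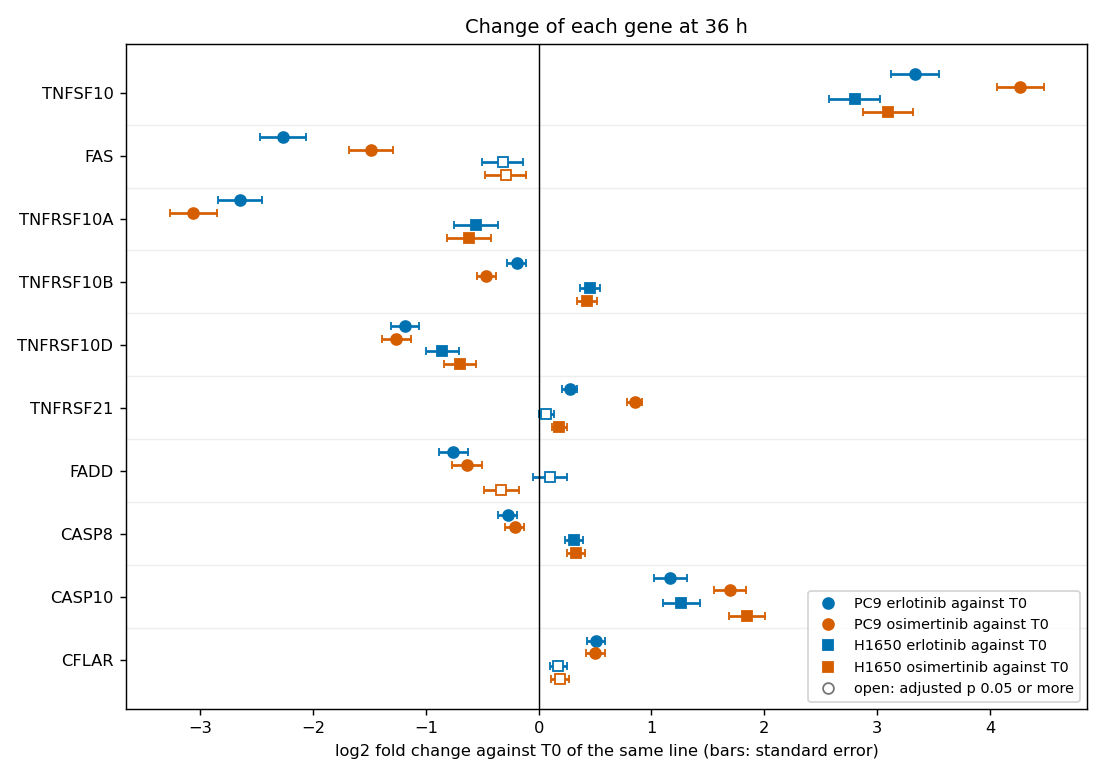
Log2 fold change of each gene against T0 of the same line at 36 h, with bars for the standard error; circles are PC9, squares H1650, blue erlotinib and orange osimertinib, and open symbols mark an adjusted p of 0.05 or more. The 4 symbols of TNFSF10 and CASP10 lie right of 0 and those of TNFRSF10A and TNFRSF10D left of it, while the PC9 and H1650 symbols of TNFRSF10B and CASP8 lie on opposite sides.

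Counted by role, the 5 receptors and decoys moved mostly down in PC9, with FAS, TNFRSF10A, TNFRSF10B and TNFRSF10D lower and TNFRSF21 higher. Within the row on chromosome 2, CFLAR and CASP10 rose in PC9 while CASP8, the last of the row, fell. Within the group on chromosome 8, TNFRSF10A and TNFRSF10D fell in H1650 while TNFRSF10B rose. Libraries of a group and T0 did not overlap for any of the 10 genes in PC9 with either drug, and for 9 of the 10 in H1650, the exception being FADD. Over all tested genes, 78.7% and 78.8% had no overlap in PC9 after erlotinib and osimertinib, and 65.6% and 64.9% in H1650.

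Whether a gene responded differently in the lines was tested as the H1650 log2 fold change less that of PC9. After erlotinib this difference passed for 6 of the 10 genes, 5 higher and 1 lower, where 40.8% of tested genes passed (21.1% higher, 19.8% lower). After osimertinib it passed for 8, 5 higher and 3 lower, where 41.9% passed (21.5% higher, 20.5% lower). The TRAIL receptor TNFRSF10A differed most, by 2.10 (SE 0.278, adjusted p = 4.6e-07) with erlotinib and 2.44 (SE 0.291, adjusted p = 7.0e-08) with osimertinib on the log2 scale, followed by FAS at 1.94 (SE 0.276, adjusted p = 1.5e-06) and 1.19 (SE 0.267, adjusted p = 0.000575). For both genes the H1650 value had moved less from T0. TNFRSF10B differed by 0.65 (SE 0.122, adjusted p = 7.8e-05) and 0.89 (SE 0.123, adjusted p = 8.5e-07), and CASP8 by 0.59 (SE 0.116, adjusted p = 0.000152) and 0.54 (SE 0.117, adjusted p = 0.000375). These 2 genes were called in opposite directions in the lines with each drug, as were 4.40% of tested genes with erlotinib and 4.19% with osimertinib. Of the PC9 calls behind this, TNFRSF10B after erlotinib and CASP8 after osimertinib were lost with DESeq2 (adjusted p = 0.0622 and 0.0507). Both were also lost with upper quartile scaling (0.271 and 0.136).

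CASP10 did not pass a test of difference between the lines, at 0.094 with erlotinib (95% interval -0.35 to 0.54, adjusted p = 0.790) and 0.15 with osimertinib (95% interval -0.28 to 0.59, adjusted p = 0.616). The ligand TNFSF10 rose less in H1650 with osimertinib, by -1.17 (SE 0.346, adjusted p = 0.00716), but without H1650 T0 replicate 2 this was -0.62 (adjusted p = 0.296) and 5 genes rather than 8 were called. With erlotinib the TNFSF10 difference was -0.53 (95% interval -1.25 to 0.18, adjusted p = 0.242). TNFRSF21 differed with osimertinib, by -0.67 (SE 0.0939, adjusted p = 1.2e-06). With erlotinib its difference of -0.21 (SE 0.0941, adjusted p = 0.0845) did not pass, though it did with DESeq2 (0.0477), with upper quartile scaling (0.00805) and with the filter of 10 counts (0.0240). FADD differed with erlotinib, by 0.86 (SE 0.199, adjusted p = 0.000865), and was at 0.31 with osimertinib (95% interval -0.11 to 0.73, adjusted p = 0.238). The CFLAR differences of -0.33 (SE 0.112, adjusted p = 0.0179) and -0.32 (SE 0.113, adjusted p = 0.0252) were lost without a filter (0.0861 and 0.211). They were also lost without PC9 T0 replicate 2 or H1650 T0 replicate 1 (0.0566 to 0.167), and in single fits without PC9 erlotinib replicate 1 or H1650 erlotinib replicate 1 (0.0581 and 0.0560), or without PC9 osimertinib replicate 1, H1650 T0 replicate 2 or H1650 osimertinib replicate 2 (0.0522 to 0.104). The TNFRSF10D difference with osimertinib, 0.56 (SE 0.192, adjusted p = 0.0184), was lost with DESeq2 (0.0597) and without PC9 osimertinib replicate 1, PC9 T0 replicate 2, H1650 T0 replicate 2 or H1650 osimertinib replicate 2 (0.0701 to 0.139).

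**Figure D4:**
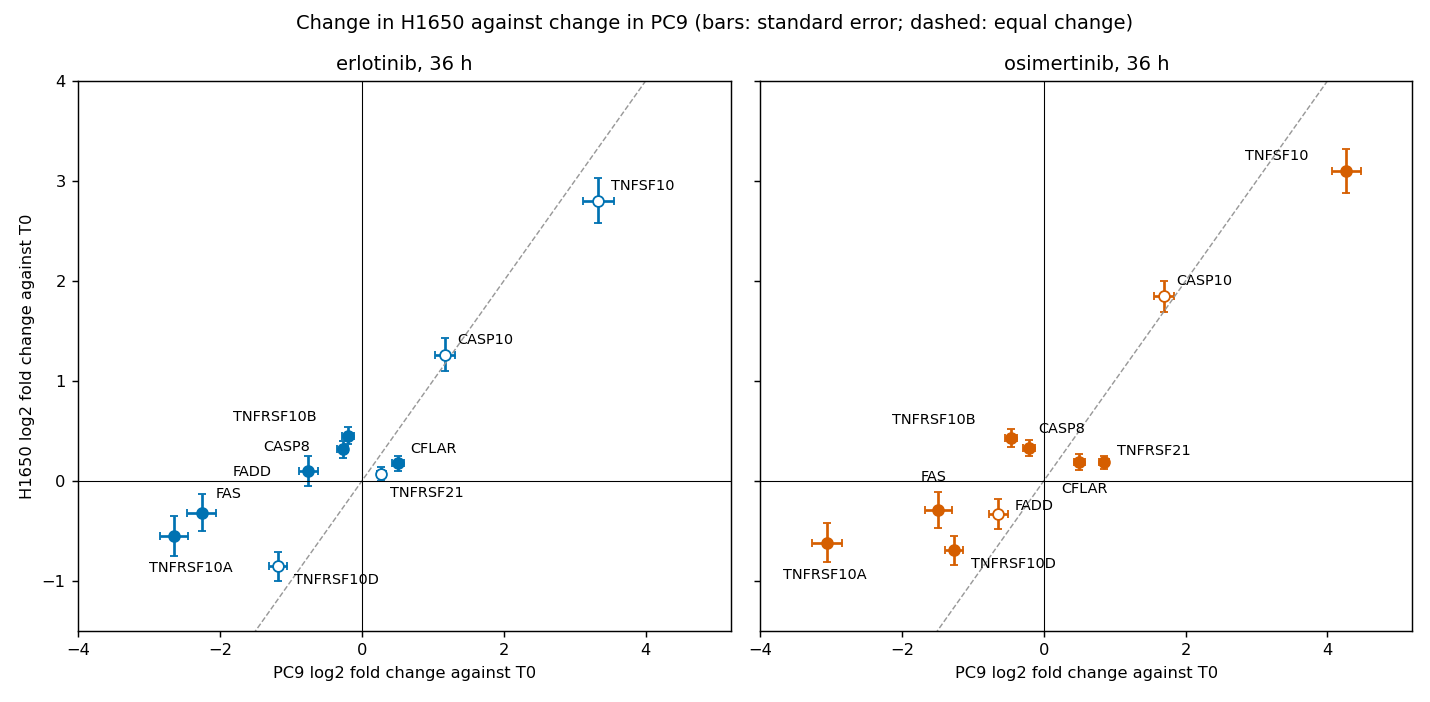
Log2 fold change against T0 in H1650 (vertical axis) against that in PC9 (horizontal axis) for erlotinib (left) and osimertinib (right), with standard errors as bars, the dashed line marking equal change and open symbols an adjusted p of 0.05 or more for the difference between the lines. CASP10 lies near the line in both panels, FAS and TNFRSF10A lie far to its left, and TNFRSF10B and CASP8 lie in the upper left quadrant near the origin.

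The drugs were then compared with each other within a line, at doses that differed (10 μM erlotinib, 0.1 μM osimertinib). In PC9, 5 of the 10 genes differed, 4 of them higher after osimertinib and 1 lower, where 16.6% of tested genes differed (10.1% higher, 6.41% lower). TNFSF10 was 1.91-fold higher after osimertinib (log2 difference 0.93, SE 0.149, adjusted p = 4.0e-05), TNFRSF21 1.49-fold (0.58, SE 0.0652, adjusted p = 1.8e-07), CASP10 1.44-fold (0.52, SE 0.129, adjusted p = 0.00444) and FAS 1.71-fold (0.77, SE 0.230, adjusted p = 0.0188). TNFRSF10B was lower by -0.27 (SE 0.0854, adjusted p = 0.0292), which was lost with DESeq2 (0.0578). Without any of the 4 PC9 treated libraries, TNFRSF10B and FAS were no longer called (0.0598 to 0.193), and CASP10 was not without PC9 erlotinib replicate 1 (0.0867), so 3 genes were called in each of those fits. For TNFRSF10A the difference of -0.41 (95% interval -0.91 to 0.091) passed without PC9 erlotinib replicate 1 (-0.81, adjusted p = 0.0158) and turned to 0.20 without replicate 2. In H1650, CASP10 alone differed and was higher after osimertinib (0.58, SE 0.142, adjusted p = 0.00775), where 8.75% of tested genes differed (5.02% higher, 3.73% lower), and it was lost without H1650 erlotinib replicate 1 (0.163) or H1650 osimertinib replicate 1 (0.0856). For CFLAR and CASP8, neither of which passed, the 95% intervals of the difference between the drugs were -0.17 to 0.16 and -0.11 to 0.24 in PC9 and -0.15 to 0.17 and -0.15 to 0.18 in H1650.

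Around these 10 genes, a list of 36 other genes of the extrinsic pathway, also chosen with earlier results of these data known, was read in the same way. Of these, 31 were tested. Below the filter were the ligands FASLG (0 reads in every library), TNF and LTA (at most 3 reads each), the receptor EDAR (at most 14) and the decoy receptor TNFRSF6B (0 reads). In PC9, 24 of the 31 passed after erlotinib (17 higher, 7 lower; median log2 fold change 0.35) and 24 after osimertinib (16 higher, 8 lower; median 0.39), beside 61.8% and 61.4% of all tested genes. In H1650, 10 passed after erlotinib (6 higher, 4 lower; median 0.13) and 12 after osimertinib (8 higher, 4 lower; median 0.11), beside 36.5% and 35.7% of all tested genes, which is near the share of the list. Without H1650 erlotinib replicate 1 the first of these was 6. In the PC9 osimertinib count, NGFR had 2 and 3 reads at T0 and 0 in both treated libraries, all within the limit of a count of 0.

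Among receptors and adaptors of the tumor necrosis factor branch, TRADD, which couples TNFRSF1A to its complex, rose in PC9 from 30.9 and 26.4 CPM at T0 to 89.4 and 65.5 CPM after erlotinib and 89.2 and 74.7 CPM after osimertinib. The log2 fold change of TRADD in PC9 was 1.43 after erlotinib (SE 0.146, adjusted p = 1.6e-09) and 1.52 after osimertinib (SE 0.147, adjusted p = 5.3e-10). For H1650 it was 0.064 (adjusted p = 0.784) and 0.42 (adjusted p = 0.0222), and the latter was not called with DESeq2 (0.215) or without H1650 osimertinib replicate 1 or H1650 T0 replicate 2 (0.296 and 0.305). TNFRSF1A, the main receptor of tumor necrosis factor, rose in PC9 by 0.66 (SE 0.0768, adjusted p = 2.1e-08) and 0.57 (adjusted p = 2.5e-07). Its rise in H1650 was 0.33 (adjusted p = 0.00103) and 0.45 (adjusted p = 2.9e-05). TNFRSF25 (DR3), a death domain receptor, went opposite ways: it fell in PC9 by 0.81 (SE 0.162, adjusted p = 9.3e-05) and 0.73 (SE 0.164, adjusted p = 0.00034) on the log2 scale, and rose in H1650 by 1.12 (SE 0.153, adjusted p = 1.2e-06) and 1.30 (SE 0.151, adjusted p = 9.8e-08). BIRC3, a ubiquitin ligase of the receptor complex, rose in PC9 by 0.35 (adjusted p = 0.0159) and 0.73 (adjusted p = 7.2e-06) and fell in H1650 by 0.90 (SE 0.162, adjusted p = 6.1e-05) and 0.76 (SE 0.158, adjusted p = 0.000359).

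Several of the named genes act on ubiquitin chains. TNFAIP3 (A20), a ubiquitin editor that restrains NF-kB, was at 104.7 and 113.5 CPM in PC9 at T0, at 11.7 and 11.9 CPM after erlotinib and at 17.2 and 18.2 CPM after osimertinib. H1650 started far lower, at 6.95 and 7.45 CPM at T0, at 4.13 and 3.82 CPM after erlotinib and at 3.39 and 3.56 CPM after osimertinib. Treated PC9 cells stayed above H1650 cells of every group. The log2 fold changes of TNFAIP3 in PC9 were -3.21 (SE 0.103, adjusted p = 2.0e-20) and -2.63 (SE 0.100, adjusted p = 8.4e-19). Those of H1650 were -0.86 (SE 0.144, adjusted p = 2.4e-05) and -1.05 (SE 0.146, adjusted p = 1.6e-06). RBCK1 (HOIL-1), part of the linear ubiquitin ligase, rose in PC9 by 1.07 after erlotinib (SE 0.0786, adjusted p = 1.8e-12) and 0.48 after osimertinib (adjusted p = 6.7e-06). For H1650 the rise was 0.98 (SE 0.0777, adjusted p = 7.9e-11) and 0.72 (SE 0.0776, adjusted p = 2.5e-08). OTULIN, which cuts linear ubiquitin chains, fell by between 0.29 and 0.44 on the log2 scale in the 4 comparisons. CYLD, a deubiquitinase of RIPK1, rose in PC9 by 0.49 (adjusted p = 4.6e-05) and 0.77 (SE 0.0932, adjusted p = 3.6e-08), and was at 0.096 and 0.11 in H1650 (adjusted p = 0.397 and 0.329).

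MLKL, which carries out necroptosis, was at 32.6 and 28.5 CPM in PC9 at T0 and between 6.84 and 8.41 CPM in the treated PC9 libraries, whereas in H1650 it went from 12.8 and 12.2 CPM to between 14.6 and 17.8 CPM. It fell by 2.05 (SE 0.137, adjusted p = 2.4e-13) and 2.01 (SE 0.140, adjusted p = 5.2e-13) on the log2 scale in PC9 and rose by 0.37 (SE 0.134, adjusted p = 0.0303) and 0.47 (SE 0.133, adjusted p = 0.00666) in H1650. PEA15, a death effector domain protein, rose in PC9 by 0.23 (adjusted p = 0.00569) and 0.43 (adjusted p = 5.8e-06) and fell in H1650 by 0.24 (adjusted p = 0.00816) and 0.45 (SE 0.0715, adjusted p = 1.1e-05). TNFRSF25, MLKL, BIRC3 and PEA15 passed the test of the difference between the lines with each drug, at adjusted p of 0.000323 or less. They had already been called in opposite directions, as were 4.40% of all tested genes with erlotinib and 4.19% with osimertinib. Passing was thus nearly fixed in advance. TNFAIP3, TRADD and CYLD passed with each drug too. Of the 31 genes tested, 12 passed with erlotinib and 16 with osimertinib, beside 40.8% and 41.9% of all tested genes. The 16 include NGFR and TNFRSF11B, within the limit of a count of 0 in PC9 and H1650 respectively. Several of the smaller erlotinib calls were lost in other fits. In PC9, BIRC3 was not called with DESeq2 (0.0876), without a filter (0.0950) or without PC9 T0 replicate 1 or 2 or PC9 erlotinib replicate 2 (0.0599 to 0.135), nor PEA15 without a filter (0.0546) or without PC9 T0 replicate 1 or PC9 erlotinib replicate 2 (0.0558 and 0.0671). In H1650, MLKL was not called with DESeq2 (0.105), without a filter (0.0617) or without H1650 T0 replicate 1 or 2 or H1650 erlotinib replicate 1 (0.0683 to 0.340). OTULIN was lost without H1650 erlotinib replicate 1 or H1650 T0 replicate 2 (0.0704 and 0.0589), and PEA15 without H1650 T0 replicate 1 or H1650 erlotinib replicate 1 (0.0561 and 0.142). After osimertinib MLKL in H1650 was lost without H1650 T0 replicate 2 (0.0544).

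**Figure D5:**
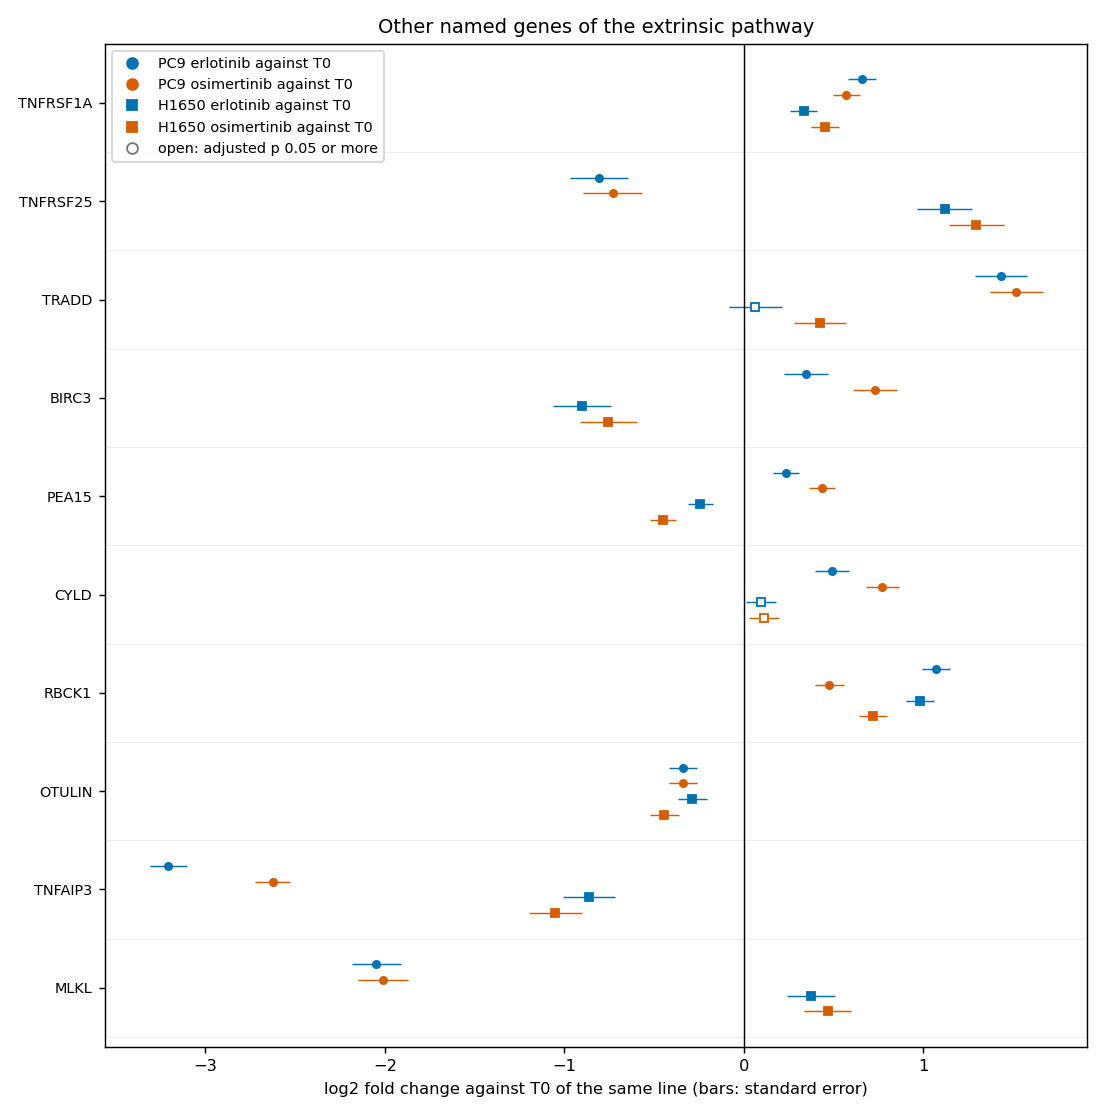
Log2 fold change against T0 of the same line for the 10 other pathway genes described by name, with standard errors as bars; circles are PC9, squares H1650, blue erlotinib and orange osimertinib, and open symbols mark an adjusted p of 0.05 or more. TNFAIP3 and MLKL in PC9 lie farthest to the left, and the PC9 and H1650 symbols of TNFRSF25, MLKL, BIRC3 and PEA15 lie on opposite sides of 0.

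Of 10 transcription factors known to act on members of the pathway, 9 passed in PC9 after erlotinib and 9 after osimertinib (6 higher and 3 lower in each), and 8 (7 higher, 1 lower) and 7 (6 higher, 1 lower) in H1650. Of all tested genes, 61.8% and 61.4% passed in PC9 and 36.5% and 35.7% in H1650. DDIT3 (CHOP), a stress factor that acts on TNFRSF10B, rose by 1.83 (SE 0.180, adjusted p = 7.1e-10) after erlotinib and 0.79 (SE 0.193, adjusted p = 0.000872) after osimertinib in PC9, where TNFRSF10B fell with osimertinib. H1650 cells showed a rise of 0.53 (SE 0.179, adjusted p = 0.0202) after erlotinib, lost with DESeq2 (0.0785) and without H1650 T0 replicate 1 or H1650 erlotinib replicate 2 (0.132 and 0.196), and it was at -0.057 (adjusted p = 0.859) after osimertinib, where TNFRSF10B rose with both drugs. The part of DDIT3 in the changes of TNFRSF10B was not tested.

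Genes with a like pattern were sought for the 6 genes that passed in each of the 4 comparisons with T0, as 20.3% of all tested genes did. The measure was the smallest root mean square difference in the 4 log2 fold changes among 10286 genes with a mean of at least 10 CPM. The nearest to TNFRSF10A were KNSTRN (0.0825) and NEK2 (0.0853). TNFRSF10D was nearest to ITGB1BP1 (0.0324) and MSANTD3 (0.0663), TNFRSF10B to SLC44A1 (0.0453) and SSBP4 (0.0618), and CASP8 to FZD5 (0.0513) and SEPTIN3 (0.0515). CASP10 had CYP4F3 (0.152) and MIR205HG (0.186) nearest. The nearest to TNFSF10 stood farther off, at 0.369 for PLAAT4, which rose by 3.92 and 4.56 on the log2 scale in PC9 and by 2.66 and 2.78 in H1650, and at 0.520 for GRAMD1C. These distances rest on 12 libraries and comparisons that share T0, and are given as a description.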

How the data were processed

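RNA of 12 libraries was analysed from counts. The authors deposited raw counts, made with featureCounts in the DolphinNext pipeline, as whole reads for each of 60591 genes beside the gene's length. Their processing notes name GRCh38 and DESeq2, while the aligner, annotation and strand setting are not given in the sources used here. edgeR 4.0.16 (R 4.3.3) dropped 41483 genes of low counts by group, which left at least 99.9% of each library's reads. After TMM scaling, 1 quasi-likelihood fit with a term per group (6 groups, 12 libraries, 6 residual and 20.68 prior degrees of freedom) gave every contrast, with Benjamini-Hochberg adjustment over 19108 genes and calls at an adjusted p under 0.05. Values per library are CPM scaled by TMM, errors of CPM are the SD of 2 libraries, and standard errors are of log2 fold changes. Totals ran from 17961765 to 26346187 reads (median 21581420.5). Since the reads carry no molecular identifiers, limits from counts cover counting error only.

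The members and gene lists were chosen with earlier results of these data known. All 10 members are named. Of the 36 other pathway genes, the 3 highest and 3 lowest called changes per drug comparison with a mean of at least 10 CPM are named, and of 10 transcription factors DDIT3. Some genes that this rule would name are not reported here. Counts with antisense or overlapping partners are marked where the partner had reads: CFLAR-AS1 (1 to 20 reads) overlaps CFLAR, and genes with at most 1 read are passed over. Alternatives were DESeq2 1.42.0, RLE and upper quartile scaling, no filter, a minimum of 10 counts per library, a stricter threshold of 0.01, a fit per line, the replicate number as a block, and fits without each library. Replicates of a group differed by more than counting noise (chi-square per gene 4.63 to 8.56) and were kept as separate samples. The fit was also run on simulated counts, with 200 of 19108 genes changed by 1 on the log2 scale between PC9 erlotinib and T0. Of these, 191 were recovered, beside 4 false calls. The simulation held far fewer changed genes than these data and no difference between the lines. It therefore cannot tell how the fit does with smaller changes or with scaling where most genes change. Motif shares are over 35116 RefSeq promoters. The screen and viability data were not analysed here.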

Additional observations from a re-analysis of the deposited data

Results flagged for a closer look

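The response to a drug differed between PC9 and H1650, by the test of the H1650 log2 fold change less that of PC9, for 6 of the 10 genes with erlotinib and 8 with osimertinib, where 40.8% and 41.9% of tested genes did so (edgeR, Benjamini-Hochberg adjusted p under 0.05). With erlotinib the differences on the log2 scale were 2.10 for TNFRSF10A, 1.94 for FAS, 0.86 for FADD, 0.65 for TNFRSF10B, 0.59 for CASP8 and -0.33 for CFLAR. With osimertinib they were 2.44 for TNFRSF10A, 1.19 for FAS, 0.89 for TNFRSF10B, 0.56 for TNFRSF10D, 0.54 for CASP8, -0.32 for CFLAR, -0.67 for TNFRSF21 and -1.17 for TNFSF10. The TNFSF10 value was -0.62 without H1650 T0 replicate 2. With 2 libraries a group, single libraries could not be tested as outliers.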

How the results depend on the processing

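Log2 fold changes of called genes kept their direction under DESeq2, other scalings, other filters, a fit per line and the replicate block. The scalings moved the median of all genes by at most 0.0905, and depth limited TNFSF10 at T0 most (20 to 45 reads). CFLAR between the drugs in PC9 turned from -0.0062 to 0.00364 with DESeq2 and 0.00384 with RLE scaling. At an adjusted p under 0.01, genes called between the drugs were 3 members, 3 of the pathway list and 1930 of all genes in PC9, and 0 of the list and 912 of all in H1650. The list had 3 there without a filter, 2 with 10 counts and 1 with DESeq2, against 1 in edgeR, where 6 of its 31 genes had an unadjusted p under 0.05, as had 2 of the 10 members.

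Replicate numbers were taken to share only a number, since no source says what they mark and 2 replicates a group are too few to tell, although the correlation of same-numbered deviations was positive in all 15 pairs of groups (0.000266 to 0.380). With the replicate block, calls between the drugs were 9 of the list in PC9, and 2 members, 5 of the list and 2670 of all genes in H1650. Members called after osimertinib in H1650 went from 7 to 9, and calls over all genes in that comparison from 6816 to 7680. Calls over all genes rose with the block in every comparison. The members gained were FADD (adjusted p = 0.0356) and CFLAR (0.0120) in H1650 after osimertinib, CFLAR in H1650 after erlotinib (0.0193), TNFRSF21 by line with erlotinib (0.0347) and FADD between the drugs in H1650 (0.0179).

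Leaving out single libraries, the range was -0.0892 to 0.30 for FADD and -0.16 to 0.27 for TRADD in H1650 after erlotinib, -0.15 to 0.0526 for DDIT3 in H1650 after osimertinib and -0.73 to 0.15 for TNFSF10 between the lines at T0. By line it was -0.87 to 0.0138 for TNFSF10 and -0.0975 to 0.28 for CASP10 with erlotinib, and -0.0111 to 0.33 for CASP10 with osimertinib. Between the drugs it was -0.81 to 0.20 for TNFRSF10A, -0.26 to 0.11 for TNFRSF10D and -0.0413 to 0.0289 for CFLAR in PC9, and -0.0590 to 0.12 for FAS, -0.23 to 0.13 for TNFRSF10A, -0.10 to 0.0613 for TNFRSF10B and -0.0123 to 0.0463 for CFLAR in H1650. Counts ranged over 6 to 11 of the list in H1650 after erlotinib and 5 to 8 members by line with osimertinib, and between the drugs over 3 to 5 members and 2 to 6 of the list in PC9 and 0 to 1 members, 0 to 2 of the list and 779 to 1794 of all genes in H1650, where the member was lost without erlotinib replicate 1 or osimertinib replicate 1. The cause was not tested.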

Other observations

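CFLAR and CASP8, whose proteins meet in the same complex, were also set against each other as a ratio of reads, a measure chosen after their values were seen and so given without a test. In PC9 the ratio of CFLAR to CASP8 reads was 0.964 and 0.883 at T0, 1.59 in both libraries after erlotinib, and 1.58 and 1.45 after osimertinib. In H1650 it was 1.57 and 1.60 at T0, 1.42 and 1.46 after erlotinib, and 1.45 and 1.42 after osimertinib. The PC9 T0 libraries stood apart at a ratio under 1, whereas the treated libraries of both lines lay between 1.42 and 1.59. The ratio is of reads and not of molecules, since the genes differ in length.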
